A study of Mus musculus with 13 samples.

Results

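The set described here holds 10 of the 46958 genes counted in glomeruli of the mouse kidney: Trim12a, Trim12c, Trim34a and Trim30d in the Trim cluster of chromosome 7, and Pydc3, Pydc4, Ifi202b, Ifi203, Ifi204 and Mndal in the Ifi200 cluster of chromosome 1. They were chosen by name, with it already known that Trim12a and Pydc3 differed between the genotypes of this study. Fold changes between genotypes are therefore given for these genes as a description, with no p-value printed. Genes past the threshold are named, but their counts are read for nothing. The p-values printed for these genes concern the title number and relations with other gene sets, and the latter include differences between genotypes. All 10 passed the filter on low counts that 16738 genes of the table passed. Trim12a was almost without reads in every LCDD library, and Pydc3 was low in every LCDD and DH-LMP2A library and higher in every wild-type library.

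The Trim genes of chromosome 7 encode tripartite-motif proteins, ubiquitin ligases related to the retroviral restriction factor TRIM5. They are expanded in rodents and many of them respond to interferon. The Ifi200 genes encode PYHIN proteins, which bind DNA in the cytosol or nucleus through a HIN domain. Several of them carry a pyrin domain that recruits inflammasome or interferon signalling partners. Many Ifi200 genes are induced by interferon, and Ifi202b is known from mouse lupus genetics as a gene whose level differs between inbred strains.

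Messenger RNA was sequenced from bead-purified glomeruli of mice aged 6 months, all on a mixed C57/BL6 x 129/SV x BALB/c background; what share of each strain a mouse carried is not given in the sources used here. The 13 libraries comprised 4 of the genotype labelled kFRA (LCDD), called LCDD here, 4 from DH-LMP2A mice and 5 from wild-type (WT) mice. LCDD stands for light chain deposition disease, in which a monoclonal immunoglobulin light chain deposits in the glomerulus and scars it. DH-LMP2A names an allele that expresses a viral membrane protein in B cells, and the labels do not say whether the LCDD mice carried it as well. Each library pooled 3 mice, except that WT replicates 3, 4 and 5 came from a single mouse each. Each title carries 1 of 4 numbers, and what the number stands for is not stated. LCDD replicates 1 to 4 carry a different number each, and DH-LMP2A replicates 1 to 4 carry the same numbers in the same order. The WT pools, replicates 1 and 2, carry the numbers of LCDD replicates 1 and 3, and the 3 single-mouse libraries all carry that of LCDD replicate 4. Within WT, the pooling and the title number cannot be told apart.

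Total counts ran from 16687509 to 30587890 per library, so that 3 counts, used as the smallest detectable level, equal 0.0971 to 0.185 CPM, the counts scaled to a common library total. This floor covers counting error only. Podocyte markers (6 of 6), glomerular endothelial markers (6 of 6), mesangial markers (6 of 6), tubule markers (8 of 8) and leukocyte markers (18 of 18) were all above the floor, as were 30 interferon-stimulated genes from outside both clusters. Summed leukocyte markers ran from 118 to 270 CPM in LCDD, 101 to 211 in DH-LMP2A and 104 to 298 in WT. Summed podocyte markers ran from 6787 to 29238 CPM, 15028 to 29765 and 14117 to 31872 in the same order. Summed tubule markers ran from 528 to 2080 CPM, 915 to 3170 and 292 to 3340. Summed glomerular endothelial markers ran from 4585 to 10922 CPM, 3190 to 8586 and 6672 to 10971. Summed mesangial markers ran from 2891 to 4347 CPM, 2429 to 2827 and 2446 to 2981. In the mesangial sum LCDD thus lay above DH-LMP2A without overlap, whereas the ranges of the other sums overlapped. Several libraries stood apart in these genes. DH-LMP2A replicate 1 was far below the other DH-LMP2A libraries for Trim12a and Trim34a. WT replicate 2 was far above the other WT libraries for Ifi204 and for the interferon-stimulated genes, whose sum reached 3195 CPM there, against 797 to 2305 CPM in the LCDD and DH-LMP2A libraries. Both WT pools had no read of Ifi202b. The fold changes these libraries moved most are given with and without them. In whole glomeruli, fewer cells of a type and less RNA per cell cannot be told apart.

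The genes lie close together and are near copies of each other, which the sequences just before their start sites show. RefSeq promoter windows on GRCm38.p6 matched 9 of the 10 genes, in 11 windows, and Ifi204 was not matched. The 250 bases before the start are printed for Trim12a and Pydc3, each beside the near copy whose level did not follow it, and for Ifi202b, whose reads were present or absent by library. Capitals mark the core of the interferon-stimulated response element, taken as GAAA, any 2 bases and GAAA again, on either strand (TTTC, 2 bases and TTTC on the other), or in Ifi202b the palindromic gamma-activated site TTCNNNGAA. Trim12a is on chr7:104315496-104315745, Trim12c on chr7:104353350-104353599, Pydc4 on chr1:173599273-173599522 and Ifi202b on chr1:173982845-173983094, all on the minus strand, and Pydc3 is on chr1:173673415-173673664 on the plus strand.
Trim12a: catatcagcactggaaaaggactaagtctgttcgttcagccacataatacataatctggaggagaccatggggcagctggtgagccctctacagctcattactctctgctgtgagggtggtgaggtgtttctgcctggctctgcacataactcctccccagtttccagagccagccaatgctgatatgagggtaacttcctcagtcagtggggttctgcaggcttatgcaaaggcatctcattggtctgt
Trim12c: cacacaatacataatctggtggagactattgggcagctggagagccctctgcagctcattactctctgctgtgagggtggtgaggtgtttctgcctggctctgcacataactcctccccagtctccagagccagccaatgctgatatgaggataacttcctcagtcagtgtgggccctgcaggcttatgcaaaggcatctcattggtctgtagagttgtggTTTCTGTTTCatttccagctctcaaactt
Pydc3: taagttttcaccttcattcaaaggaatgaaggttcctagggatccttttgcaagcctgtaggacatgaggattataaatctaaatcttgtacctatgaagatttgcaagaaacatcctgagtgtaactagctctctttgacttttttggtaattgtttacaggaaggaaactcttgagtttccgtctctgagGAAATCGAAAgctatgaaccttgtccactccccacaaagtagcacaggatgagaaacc
Pydc4: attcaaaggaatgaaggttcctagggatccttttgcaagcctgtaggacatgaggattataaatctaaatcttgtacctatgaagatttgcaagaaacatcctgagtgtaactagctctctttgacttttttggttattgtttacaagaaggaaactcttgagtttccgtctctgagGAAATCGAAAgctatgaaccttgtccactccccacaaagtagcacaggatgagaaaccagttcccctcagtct
Ifi202b: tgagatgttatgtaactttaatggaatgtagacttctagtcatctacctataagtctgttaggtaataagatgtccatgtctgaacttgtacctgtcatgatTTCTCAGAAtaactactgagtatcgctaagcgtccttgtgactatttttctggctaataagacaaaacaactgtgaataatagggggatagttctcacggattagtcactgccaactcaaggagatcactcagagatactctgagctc
Pydc3 and Pydc4 carried the same core letters, 48 and 63 bases before their starts, and 282 of 285 aligned bases of their 300-base windows, which add 50 bases after the start, were identical (98.9%). Trim12a and Trim12c had 247 of 261 aligned bases in common (94.6%). The Trim12c core ended 19 bases before its start. In Trim12a a core ended 20 bases after the start, outside the letters printed, and so did one in Trim34a. The aligned stretch began at base 41 of the Trim12a window and base 1 of the Trim12c window. Whether a core lies before or after the start thus depends on the annotated start, and no difference between these promoters is read from it. Of the 9 matched genes, 6 held the response element core before the start (Trim12c, Trim30d, Pydc3, Pydc4, Ifi203 and Mndal), against 2.977% of 32851 windows of the same length. The percentage is per window, whereas a gene counted if any of its windows matched. The 6 are not separate cases, since Pydc3 and Pydc4 windows are near copies, as are those of Ifi203 and Mndal (94.3% identical). The gamma-activated site was found in 1 gene of the set, Ifi202b, and in 7.02% of all windows. The motifs do not overlap in these windows. A match is only a description of letters.

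The coding sequences were also alike. Over aligned bases, the 891 coding bases of Trim12a were 96.4% identical to Trim12c, whose coding sequence has 1491 bases, and 97.1% identical to those of Trim5. Pydc3 (1764 coding bases) and Pydc4 (1758) were 96.9% identical. Ifi203 and Mndal were 79.2% identical, Ifi202b and Ifi203 73.5%, Ifi202b and Ifi204 74.3%, and Trim12a and Trim30d 77.1%. At the read length of 75 bases, the share of a gene's transcript positions found letter for letter in another gene was 0 for Ifi202b, 5.25% for Trim12a, 5.40% for Trim30d, 5.71% for Ifi203, 8.07% for Pydc4, 11.1% for Mndal, 11.8% for Pydc3, 13.2% for Ifi204, 16.9% for Trim12c and 29.5% for Trim34a. How the authors counted reads that match several places is not given in the sources used here, so levels of the genes with the larger shares are uncertain. The shares come from GENCODE M21 transcripts. The Trim34a and Trim34b rows of the deposited table follow other models, with span overlaps of 0.185 and 0.203 with GENCODE M21. In the deposited table, Trim34a also shares 875 exon bases with Trim34b on the same strand (20.6% of its exon bases) and 405 with Trim12c on the opposite strand. The kit marks strand, but the strand setting of the counting is not given in the sources used here.

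**Figure D1:**
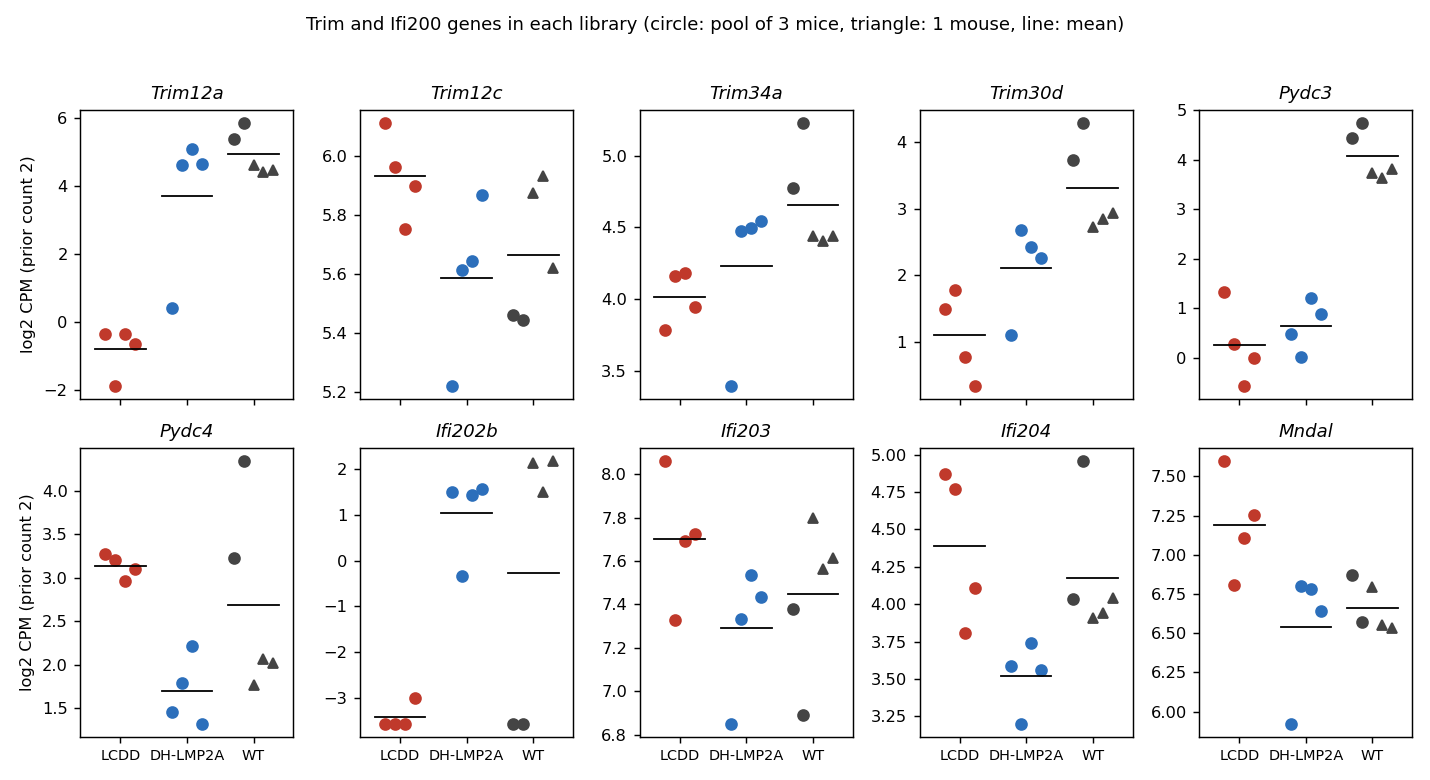
Level of each of the 10 genes in each library, as log2 CPM with a prior count of 2 (vertical axis, a log scale that differs between panels), by genotype. Circles are pools of 3 mice, triangles single mice and lines the mean of a genotype. Trim12a is low in all 4 LCDD libraries and in DH-LMP2A replicate 1, Pydc3 is high only in the 5 WT libraries, and Ifi202b is at the bottom of the scale in LCDD and in the 2 WT pools.

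Trim12a is one of the mouse relatives of TRIM5, at chr7:104299894-104315466 on the minus strand. In LCDD its level was 0.691, 0.188, 0.700 and 0.552 CPM, which is 5 to 18 reads per library. In DH-LMP2A it was 1.23, 24.6, 33.6 and 25.1 CPM, and in WT 41.8, 57.6, 24.3, 21.1 and 22.1 CPM. No LCDD library reached the lowest library of either other genotype, although DH-LMP2A replicate 1 came close. The fitted level was 39.8-fold lower in LCDD than in DH-LMP2A (log2 fold change −5.31 ± 0.83, SE, n = 4 and 4). It was 62.9-fold lower in LCDD than in WT (−5.97 ± 0.84, n = 4 and 5). DH-LMP2A and WT ranges overlapped (−0.66 ± 0.62), and this value was −0.27 without DH-LMP2A replicate 1. The LCDD difference from DH-LMP2A was then −5.71. Within WT, the 2 pools averaged 49.7 CPM and the 3 single mice 22.5 CPM, close to the 27.7 CPM of DH-LMP2A replicates 2 to 4.

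Trim12c, the near copy of Trim12a at chr7:104338754-104353362 on the minus strand, encodes a ligase that has been tied to antiviral signalling. It did not follow Trim12a. It ran from 53.8 to 69.2 CPM in LCDD, 37.2 to 58.3 in DH-LMP2A and 43.4 to 60.9 in WT, and the ranges of all 3 genotypes overlapped. Its fold change was 0.33 ± 0.15 between LCDD and DH-LMP2A and 0.26 ± 0.14 between LCDD and WT.

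Trim34a, another tripartite-motif gene, at chr7:104244457-104340693 on the plus strand, spans Trim12a in the deposited table. Its row there is a different model from Trim34a of GENCODE M21: the shared span was 0.185 of their joined span. Trim34a measured 13.7, 17.8, 18.0 and 15.3 CPM in LCDD, 10.4, 22.2, 22.4 and 23.2 in DH-LMP2A, and 27.2, 37.4, 21.6, 21.1 and 21.6 in WT. All LCDD libraries lay below all WT libraries (−0.67 ± 0.24), whereas LCDD overlapped DH-LMP2A through replicate 1 of the latter (−0.27 ± 0.25, and −0.48 without that library).

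Trim30d, at chr7:104470014-104507849 on the minus strand, belongs to the Trim30 branch, whose member Trim30a is known to dampen innate signalling. It measured 13.2, 19.5, 6.53, 7.11 and 7.54 CPM in WT, 2.06, 6.33, 5.25 and 4.70 in DH-LMP2A, and 2.72, 3.35, 1.62 and 1.18 in LCDD. The WT range lay above both others, and LCDD overlapped DH-LMP2A through replicate 1 of the latter alone. The fold change was −2.27 ± 0.45 for LCDD against WT, −1.23 ± 0.43 for DH-LMP2A against WT and −1.04 ± 0.45 for LCDD against DH-LMP2A. Without DH-LMP2A replicate 1 the last 2 values were −0.99 and −1.28. The WT pools, at 16.3 CPM on average, were higher than the 3 single mice at 7.06 CPM.

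DH-LMP2A replicate 1 was low across much of the Trim cluster. Relative to the mean of the other 3 DH-LMP2A libraries, it had 0.0445 of the Trim12a level, 0.210 of Trim5, 0.379 of Trim30d and 0.461 of Trim34a, in each case below all 3 others, and Trim12c, Trim6, Trim30b and Trim34b were also below them. Trim30a was above them, at 1.42 times their mean. In the Ifi200 cluster, Gm16340 (0.349), Pyhin1 (0.532), Mndal (0.566) and Ifi203 (0.665) were also below the other 3 libraries, and AI607873 was above them (1.18). Pydc3, Pydc4, Ifi202b and Ifi204 were within their range. DH-LMP2A replicate 1 also differed outside both clusters. Every podocyte marker lay below the other 3 DH-LMP2A libraries, such as Nphs1 at 1176 CPM against 2281 to 3760. Every tubule marker lay above them, such as Slc34a1 at 918 CPM against 113 to 583. The share of all genes below the other 3 is not given here, and the part of cell composition was not tested.

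Pydc3, also called Ifi208, is a pyrin-domain gene of the Ifi200 cluster at chr1:173673675-173698392 on the plus strand. In WT it measured 21.5, 26.7, 13.1, 12.3 and 14.0 CPM. In LCDD it was 2.42, 1.13, 0.592 and 0.907 CPM, and in DH-LMP2A 1.31, 0.926, 2.23 and 1.75 CPM. All WT libraries lay far above all others, and LCDD and DH-LMP2A overlapped (−0.27 ± 0.42). The fitted level was 13.7-fold lower in LCDD than in WT (−3.78 ± 0.43) and 11.3-fold lower in DH-LMP2A than in WT (−3.50 ± 0.43). The WT pools averaged 24.1 CPM and the single mice 13.1 CPM. With the single mice left out, these log2 fold changes were −4.28 and −3.99.

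Pydc4, also called Ifi213, is the near copy of Pydc3, at chr1:173566284-173599274 on the minus strand. Its pattern was different. LCDD libraries held 9.55, 9.15, 7.70 and 8.48 CPM, a narrow range above the 2.66, 3.37, 4.57 and 2.42 CPM of DH-LMP2A. WT spanned both, with 9.25 and 20.2 CPM in the pools and 3.32, 4.12 and 3.97 CPM in the single mice. The fold change was 1.43 ± 0.50 between LCDD and DH-LMP2A, 0.10 ± 0.46 between LCDD and WT, and −1.33 ± 0.48 between DH-LMP2A and WT. The value against WT turned on which WT libraries entered: LCDD was −0.78 relative to the pools alone and 0.71 relative to WT without replicate 2. DH-LMP2A was −2.20 relative to the pools and −0.70 without WT replicate 2.

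Ifi202b, at chr1:173962568-173982744 on the minus strand, encodes a HIN protein without a pyrin domain that is known to antagonise the DNA sensor Aim2. LCDD had 0, 0, 0 and 1 reads. DH-LMP2A had 74, 19, 46 and 64 reads, or 2.77, 0.704, 2.63 and 2.87 CPM. The WT pools had 0 and 0 reads, and the WT single mice had 108, 61 and 110 reads, or 4.32, 2.73 and 4.46 CPM. Against a floor of 3 counts per library, LCDD was at least 17.6-fold lower than DH-LMP2A. It was at least 18.1-fold lower than the mean of all WT libraries, a mean that joins libraries with and without reads. Within WT, the pools were at least 27.2-fold lower than the single mice. LCDD and the WT pools were both under the floor, so no fold is given between them. Over the 13 libraries Ifi202b ran against Pydc4, with a Pearson correlation of log2 CPM of −0.87, the lowest among pairs of the 10 genes. The correlation is a description over libraries that share genotypes, and it contrasts libraries with and without Ifi202b reads.

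Ifi203, Ifi204 and Mndal, the more abundant Ifi200 genes, differed less. Ifi204, at chr1:173747293-173766943 on the minus strand, encodes a DNA sensor linked to interferon induction. It measured 29.2, 27.3, 14.0 and 17.2 CPM in LCDD, 11.9, 9.11, 13.3 and 11.7 in DH-LMP2A, and 16.3, 31.0, 14.9, 15.3 and 16.4 in WT. Every DH-LMP2A library was below every library of the other genotypes, and LCDD and WT overlapped. Its fold change was 0.93 ± 0.28 for LCDD against DH-LMP2A, −0.70 ± 0.27 for DH-LMP2A against WT and 0.22 ± 0.26 for LCDD against WT. Without WT replicate 2 the last value was 0.45 and the DH-LMP2A value −0.47.

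Mndal, a nuclear Ifi200 protein gene at chr1:173857220-173942491 on the minus strand, measured 194, 112, 138 and 153 CPM in LCDD and 60.6, 112, 110.1 and 99.6 in DH-LMP2A. The lowest LCDD library exceeded the highest DH-LMP2A library by less than 1 CPM (0.64 ± 0.20, and 0.48 without DH-LMP2A replicate 1). WT ran from 92.5 to 117 CPM. Ifi203, next to it at chr1:173920407-173942672 on the minus strand, ran from 161 to 267 CPM in LCDD, 115 to 186 in DH-LMP2A and 118 to 222 in WT, with all ranges overlapping (0.41 ± 0.21 for LCDD against DH-LMP2A).

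On a scale comparable between genes, CPM per kilobase of exon (RPKM), Mndal and Ifi203 were highest in every genotype. Their means were 43.3 ± 9.95 and 31.5 ± 6.49 RPKM in LCDD (SD, n = 4), and 29.6 ± 3.27 and 26.6 ± 5.81 in WT (SD, n = 5). Trim12c followed with 16.4 ± 1.70 RPKM in LCDD and 13.7 ± 2.19 in WT. In WT the next were Trim34a (6.06 ± 1.64), Trim12a (5.77 ± 2.77) and Ifi204 (5.27 ± 1.93), which did not differ beyond their spread, then Pydc3 (3.33 ± 1.20), Trim30d (2.87 ± 1.48), Ifi202b (1.36 ± 1.30) and Pydc4 (1.20 ± 1.04). In LCDD the order below Trim12c was Ifi204 (6.15 ± 2.09), Trim34a (3.81 ± 0.488), Pydc4 (1.28 ± 0.119), Trim30d (0.590 ± 0.265), Pydc3 (0.240 ± 0.152), Trim12a (0.0922 ± 0.0414) and Ifi202b (0.00581 ± 0.0116). Trim12a was thus among the middle genes in WT and next to last in LCDD.

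Counted over the 10 genes, ranges did not overlap between LCDD and DH-LMP2A for 5 genes: Trim12a and Ifi202b lower in LCDD, and Pydc4, Ifi204 and Mndal higher. Between LCDD and WT they did not overlap for 4 genes, all lower in LCDD (Trim12a, Trim34a, Trim30d and Pydc3), and between DH-LMP2A and WT for 3 genes, all lower in DH-LMP2A (Trim30d, Pydc3 and Ifi204). Over all genes tested, 7.62% did not overlap between LCDD and DH-LMP2A (2.89% lower in LCDD and 4.74% higher). Between LCDD and WT 4.59% did not (1.63% lower and 2.97% higher), and between DH-LMP2A and WT 4.97% (2.33% lower and 2.64% higher). Without DH-LMP2A replicate 1, ranges of LCDD and DH-LMP2A did not overlap for 7 of the 10 genes, with Trim34a and Trim30d added, and for 19.2% of all genes. In the edgeR fit over all genes, 1 of the 10 passed the threshold between LCDD and DH-LMP2A (Trim12a), 3 between LCDD and WT (Trim12a, Trim30d and Pydc3) and 1 between DH-LMP2A and WT (Pydc3), all lower in the genotype named first. Over all genes 2.00%, 1.84% and 0.627% passed, and 0.693%, 0.544% and 0.352% passed in the lower direction (1.30%, 1.30% and 0.275% in the higher). Since differences between genotypes chose the set, nothing is read from these counts. With the title number as a block, the LCDD and DH-LMP2A count was 3, adding Pydc4 and Ifi202b. Without WT replicate 2 it was 4, with Ifi204 besides. Over all genes the block gave 1021 calls in this comparison, and leaving out 1 library gave 113 to 484. The LCDD and WT count was 2 without LCDD replicate 3 or 4, each of which ended the call of Trim30d. Leaving out 1 library gave 159 to 441 calls over all genes there. The DH-LMP2A and WT count was 3 without the single-mouse libraries, adding Pydc4 and Ifi202b, in a fit where 69 of all genes passed. The 10 genes had a median log2 fold change of 0.03, −0.28 and −0.53 in the 3 comparisons, against −0.0061, 0.010 and 0.00089 over all genes. The 3 comparisons share libraries and are not independent of each other.

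**Figure D2:**
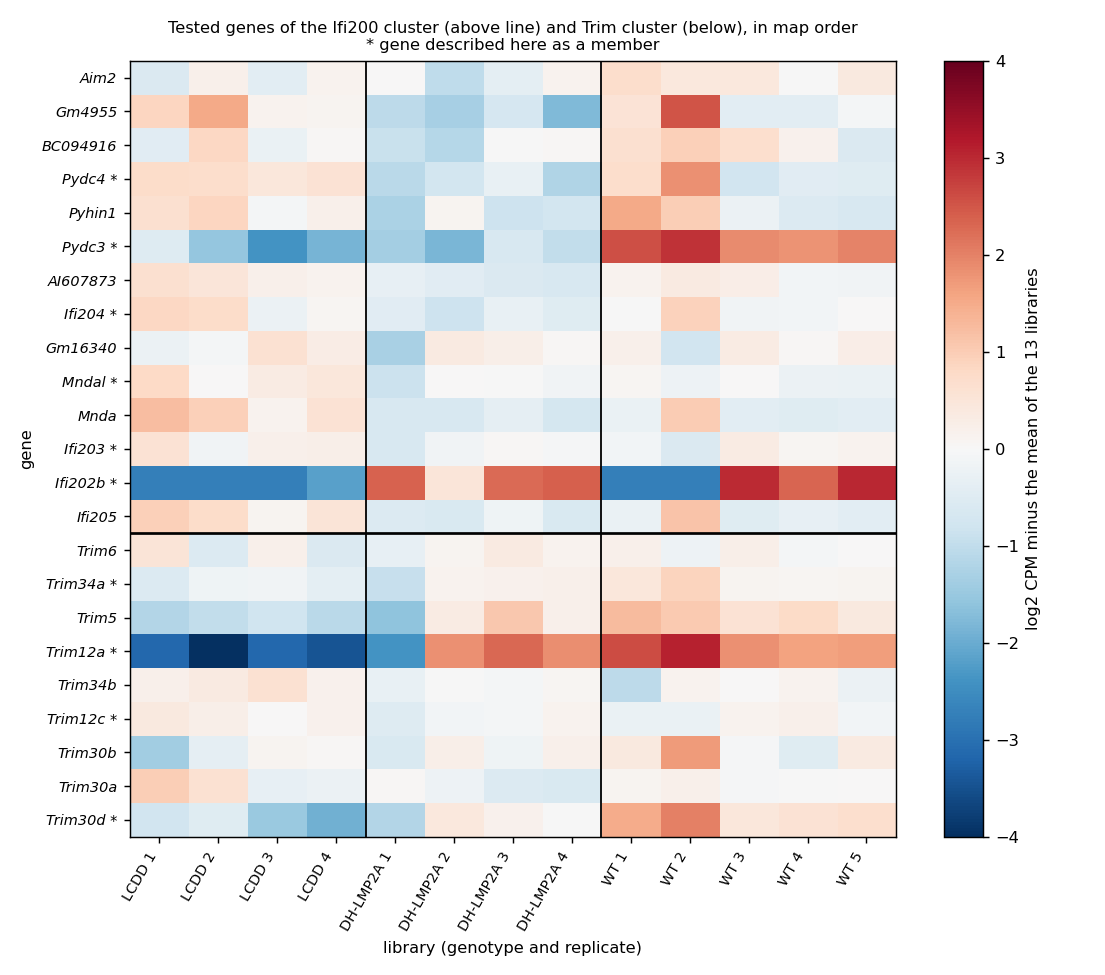
Each row is a tested gene of the Ifi200 cluster (upper) or the Trim cluster (lower) in map order, each column a library, and the colour is log2 CPM minus the gene's mean over the 13 libraries, cut off at 4 in both directions. Asterisks mark the 10 genes described, and the rows of Trim12a, Pydc3 and Ifi202b carry the deepest colours.

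The other genes of the same clusters are what remains after the 10 were taken out, and the lists were drawn up with earlier results known, so their tests are no independent evidence. Of 15 counted genes, 13 were tested, 5 Trim and 8 Ifi200 genes; Trim30c and Trim30e-ps1 had too few reads. Between LCDD and DH-LMP2A, 1 of the 13 passed the threshold, against 2.00% of all genes. AI607873, also called Ifi207, was higher in LCDD, at 27.2, 24.1, 19.8 and 19.0 CPM against 13.8, 12.6, 11.6 and 10.97 in DH-LMP2A, without overlap. Its fold change was 0.88 ± 0.16, with an adjusted p of 0.0123 in edgeR. WT lay between, from 15.7 to 22.3 CPM. The call was lost without DH-LMP2A replicate 2, 3 or 4 (adjusted p of 0.0519, 0.0507 and 0.0524) and with the interferon-stimulated genes' mean as a covariate (0.70, adjusted p of 0.0737). With the title number as a block, 3 of the 13 passed: AI607873 (adjusted p of 0.00625), Mnda (0.0305; without the block 1.40 ± 0.35, adjusted p of 0.0616) and Gm4955 (0.0335; without the block 2.08 ± 0.69, adjusted p of 0.173). Over all genes, 1021 of 16738 passed with the block. Without WT replicate 2, 4 of the 13 passed: AI607873, Mnda, Gm4955 and Ifi205. Over all genes, fits that left out 1 library gave 113 to 484 calls in this comparison.

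Between LCDD and WT, Trim5 was the 1 neighbour of 13 that passed, against 1.84% of all genes. Trim5, a mouse relative of the primate restriction factor, measured 2.19, 2.52, 2.85 and 2.37 CPM in LCDD against 12.2, 10.6, 7.61, 8.73 and 6.73 in WT, without overlap. Its fold change was −1.89 ± 0.41, with an edgeR adjusted p of 0.0312. In DH-LMP2A it measured 1.61, 6.45, 10.7 and 5.82 CPM, with replicate 1 below the LCDD libraries. The difference between LCDD and DH-LMP2A did not pass (−1.30 ± 0.41, adjusted p of 0.149), and without DH-LMP2A replicate 1 it did (−1.62, adjusted p of 0.00897). The LCDD and WT call held in 13 of 21 alternatives. It was lost without any 1 of the LCDD libraries, without any 1 of the single-mouse WT libraries, and without those 3 together (−2.24, adjusted p of 0.143). Without WT replicate 2, 3 of the 13 passed between LCDD and WT in edgeR: Trim5, Mnda (1.17, adjusted p of 0.0163) and Ifi205 (0.98, adjusted p of 0.0342). Over all genes, fits that left out 1 library gave 159 to 441 calls in this comparison. No neighbour passed between DH-LMP2A and WT in edgeR, where 0.627% of all genes did. There 5 of 13 had an unadjusted p under 0.05, all of them Ifi200 genes, against 2085 of 16738 genes. With DESeq2 or with the title number as a block, Gm4955 and AI607873 passed, as did 461 and 562 of all genes.

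The 8 Ifi200 neighbours shared a sign. All 8 had a higher fitted level in LCDD than in DH-LMP2A, 4 of them without overlap (4.74% of all genes were higher without overlap), with a median log2 fold change of 0.98. None of the 8 was higher in DH-LMP2A than in WT (median −0.64), and between LCDD and WT 4 were higher (median 0.05). Beside AI607873, Mnda, a nuclear antigen of myeloid cells, ran from 8.08 to 17.3 CPM in LCDD and from 4.43 to 5.60 in DH-LMP2A. Ifi205 had 2.96 to 5.37 CPM in LCDD and 1.75 to 2.398 in DH-LMP2A (1.12 ± 0.37, adjusted p of 0.168). Aim2, the DNA sensor of the inflammasome, overlapped between all genotypes, with 1.96 to 3.46 CPM in LCDD, 1.44 to 3.31 in DH-LMP2A and 2.95 to 4.89 in WT. Gm4955 and Mnda, like Pydc4 and Ifi204, had their highest WT value in replicate 2, at 8.53 and 14.8 CPM. Among Trim neighbours, Trim30a ran from 39.1 to 98.1 CPM in LCDD, 31.8 to 51.0 in DH-LMP2A and 47.7 to 56.5 in WT (0.68 ± 0.26 for LCDD against DH-LMP2A, adjusted p of 0.256). Trim6, Trim30b, Trim34b, Pyhin1, BC094916 and Gm16340 did not pass in any genotype comparison. Outside these gene families, within 500 kb of the outermost of the 10 genes, 5 tested genes lay near the Trim cluster and 0 near the Ifi200 cluster, and 0 of the 5 passed in any of the 3 comparisons (edgeR, adjusted p).

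**Figure D3:**
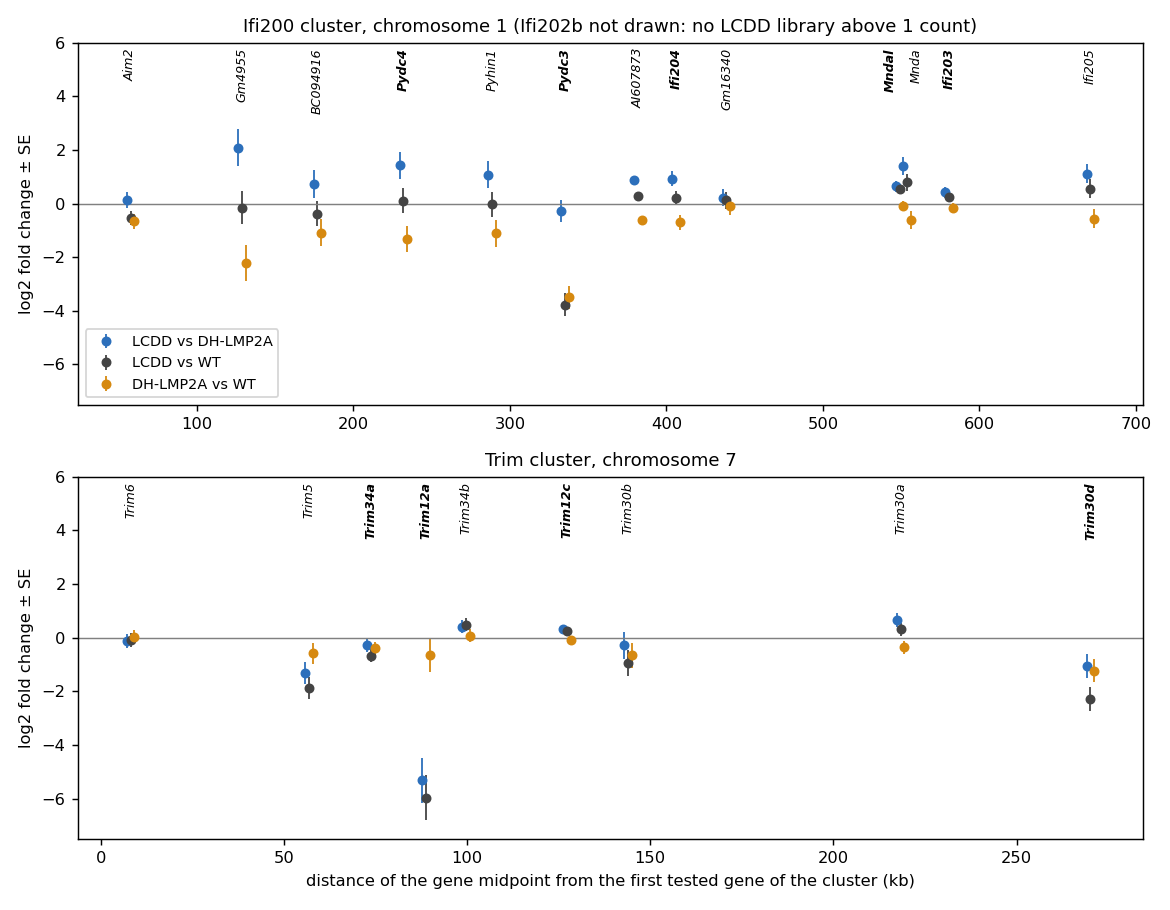
Log2 fold change with its standard error (vertical axis) against the distance of each gene's midpoint from the first tested gene of its cluster in kilobases (horizontal axis), for the 3 genotype comparisons in 3 colours. Names in bold are the 10 genes described, and Ifi202b is left out because LCDD had at most 1 read of it. Trim12a in LCDD and Pydc3 in LCDD and DH-LMP2A lie far below the genes next to them.

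The title number was not used to choose the genes. It was tested with the genotype in the model (edgeR F test of 3 terms). Of all genes tested 18.6% passed, and 0 of the 10 did, with 1 of 10 at an unadjusted p under 0.05, against 37.7% of all genes. That gene was Pydc4 (p of 0.0240 in the edgeR fit, adjusted p of 0.0872). Ifi202b followed with an adjusted p of 0.149, then Trim30d with 0.165 and Trim34a with 0.197. Trim12a (0.577) and Pydc3 (0.293) were further from the threshold. Leaving out LCDD replicate 3, LCDD replicate 4 or DH-LMP2A replicate 4 gave 1 call each. Over all genes, fits that left out 1 library gave 1502 to 2961 calls for the title number. A p that misses the threshold does not show that the levels were equal across the numbers: Ifi202b was at 0 reads in both WT pools and at 61 to 110 reads in the 3 WT libraries that share the last number.

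The levels of the 10 genes were also compared with 30 interferon-stimulated genes of other families (mean log2 CPM per library) and with 18 leukocyte markers, giving 20 relations over the 13 libraries, tested with 100000 permutations and adjusted together. The permutations moved libraries freely across genotypes and title numbers, so their p-values include differences between genotypes. No p was computed for the values after removing each genotype's mean. The mean of the interferon-stimulated genes was 5.69, 5.30, 4.72 and 4.80 in LCDD, 4.72, 4.05, 4.43 and 4.19 in DH-LMP2A, and 4.38, 6.30, 4.35, 4.61 and 4.47 in WT. Ifi204 followed it most closely, with a Pearson r of 0.90 (two-sided permutation p of 2e-05, adjusted 0.0004) and a Spearman rho of 0.79 (permutation p of 0.00186, adjusted 0.0372). Without LCDD replicate 1 and WT replicate 2, the libraries farthest from the median, r was 0.81, and after removing each genotype's mean it was 0.89. Pydc4 had an r of 0.80 (permutation p of 0.00057, adjusted 0.0057) and a rho of 0.71 (adjusted 0.0635), and its r was 0.59 without those 2 libraries and 0.72 within genotypes. Ifi202b had an r of −0.61 (permutation, adjusted 0.0740) and a rho of −0.59 (adjusted 0.128). Its reads were present or absent by library, so both values contrast those sets of libraries and show no graded relation. Trim12a and Pydc3 fell into separate clusters of libraries, so no pooled correlation is given for them. After removing each genotype's mean, r was 0.64 for Pydc3 and −0.02 for Trim12a, as a description. WT replicate 2 and LCDD replicate 1 held both the highest interferon-stimulated mean and the highest Pydc3 level of their genotypes. In DH-LMP2A this was not so. Replicate 1 held the highest mean there, but its Pydc3 level of 1.31 CPM was inside that genotype's range of 0.926 to 2.23 CPM. No title number held 6 libraries, so none of these relations could be computed within a number.

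**Figure D4:**
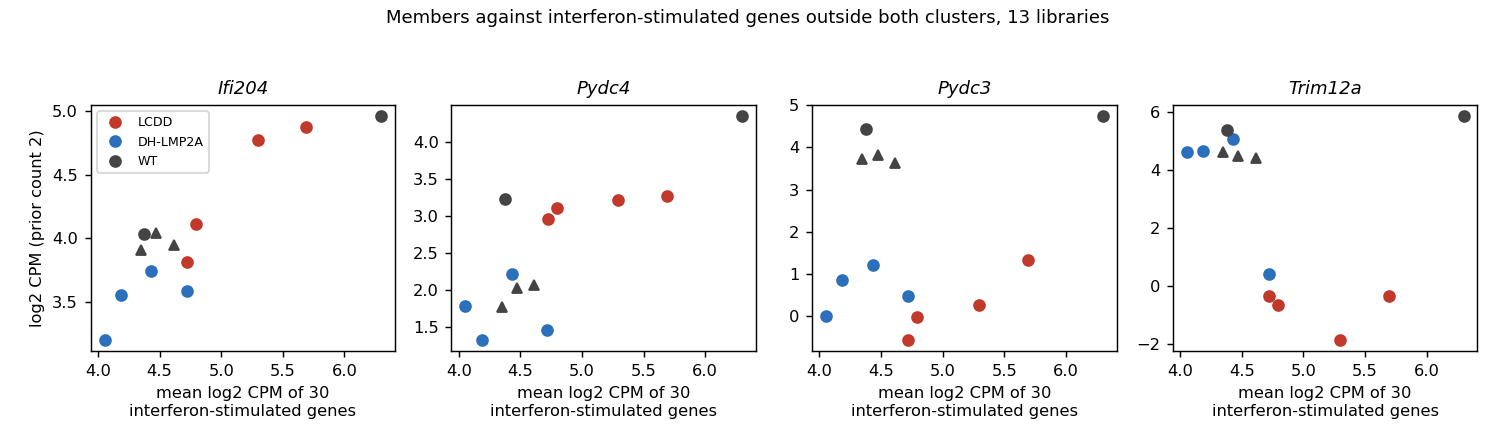
Level of 4 of the genes (vertical axes, log2 CPM, prior count 2) against the mean log2 CPM of 30 interferon-stimulated genes (horizontal axes) in the 13 libraries, with colours for genotypes, circles for pools and triangles for single mice. Ifi204 and Pydc4 rise with the horizontal value, with r of 0.90 and 0.80, whereas Pydc3 separates WT from the rest and Trim12a separates LCDD and DH-LMP2A replicate 1 from the rest.

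With the leukocyte markers, Pydc4 had an r of 0.77 (permutation p of 0.00151, adjusted 0.0101) and a rho of 0.70 (adjusted 0.0635), and its r was 0.55 without WT replicates 1 and 2. Ifi202b had an r of −0.65 (permutation, adjusted 0.0700) and a rho of −0.64 (adjusted 0.0980), with r of −0.54 without those 2 libraries and −0.82 within genotypes. LCDD and both WT pools had at most 1 read of it per library. Its values therefore contrast libraries with and without reads and show no graded relation. Ifi204 had an r of 0.62 (permutation, adjusted 0.0740) and a rho of 0.63 (adjusted 0.0980). The WT pools, which among WT had the highest Pydc4 and Trim30d and no Ifi202b reads, had summed leukocyte markers of 283 and 298 CPM, against a lowest value of 104 in WT. LCDD replicate 2, with 270 CPM, had 9.15 CPM of Pydc4, 3.35 of Trim30d and no Ifi202b read. Other libraries went the other way. DH-LMP2A replicate 1, with 211 CPM, had 2.66 CPM of Pydc4, 2.06 of Trim30d and 74 Ifi202b reads, the most of its genotype. LCDD replicates 3 and 4, with only 118 and 130 CPM, had 7.70 and 8.48 CPM of Pydc4 and 0 and 1 Ifi202b reads. The part of leukocytes in these differences was not tested. With the leukocyte mean as a covariate, the Pydc4 value for DH-LMP2A against WT moved from −1.33 to −0.43, and with the interferon-stimulated mean the Ifi204 value for LCDD against DH-LMP2A moved from 0.93 to 0.41.

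Few genes of the pathways around these sensors passed the test, as was so for all genes. Over all genes, 2.00%, 1.84% and 0.627% passed in the 3 comparisons in edgeR. An unadjusted p under 0.05 in edgeR was reached by 2193, 2002 and 2085 of 16738 genes. With the title number as a block, 1021, 536 and 562 passed. In lists this short, a count of 0 is near the share over all genes and is read for nothing. Of 19 tested genes of cytosolic nucleic acid sensing and inflammasomes, 0 passed in each of the 3 genotype comparisons in edgeR (4, 3 and 2 at an unadjusted p under 0.05, and 1, 0 and 0 with the title number as a block). Their median log2 fold changes were 0.33, 0.13 and −0.13. The gene that passed with the block was Tmem173, the adaptor STING on which cytosolic DNA sensing converges (1.09 ± 0.31 for LCDD against DH-LMP2A, adjusted p of 0.0969, and 0.0300 with the block). Casp4, an inflammatory caspase that responds to lipopolysaccharide, had 0.75 ± 0.20 in that comparison (adjusted p of 0.0784) and 0.66 ± 0.19 between LCDD and WT (adjusted p of 0.109). Between LCDD and WT the RNA sensor Ddx58 had 0.48 (adjusted p of 0.210), and between DH-LMP2A and WT Ifih1, another RNA sensor, had −0.39 (adjusted p of 0.304) and the transcription factor Irf3 0.33 (adjusted p of 0.364).

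Of the 30 interferon-stimulated genes, 0 passed in each comparison in edgeR (12, 1 and 6 at an unadjusted p under 0.05, and 2, 1 and 1 with the title number as a block). Over all genes 2.00%, 1.84% and 0.627% passed, and 2193, 2002 and 2085 of 16738 had an unadjusted p under 0.05 in edgeR. All 30 had a higher fitted level in LCDD than in DH-LMP2A, 14 of them without overlap (against 4.74% of all genes), with a median log2 fold change of 0.89. The median was 0.19 between LCDD and WT and −0.63 between DH-LMP2A and WT, where 0 of 30 were higher in DH-LMP2A. Xaf1, an interferon-induced regulator of cell death, had 1.61 ± 0.38 for LCDD against DH-LMP2A (adjusted p of 0.0515, and 0.0102 with the block) and 1.28 ± 0.36 for LCDD against WT (adjusted p of 0.102, and 0.0267 with the block). Ifi44 had 0.91 ± 0.25 and, between DH-LMP2A and WT, −0.91 ± 0.24 (adjusted p of 0.0910 and 0.132, and 0.0383 and 0.0351 with the block). Mx2, an antiviral GTPase, had 0.77 between LCDD and WT (adjusted p of 0.446), and Gbp7 −0.42 between DH-LMP2A and WT (adjusted p of 0.296). Leukocyte markers had 0 of 18 past the threshold in each comparison (3, 1 and 4 at an unadjusted p under 0.05, and 1, 0 and 0 with the title number as a block), with medians of 0.46, −0.10 and −0.67.

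Among 14516 genes that averaged 1 CPM or more, the 5 most like Trim12a over the 13 libraries, by the Pearson correlation of log2 CPM, were Colec12 (0.93), Trim5 (0.93), Atp6v0c (0.90), Clec12b (0.90) and Egln3 (0.90). Trim5 is the one of these in the same cluster. The libraries low in Trim12a were low in it too, with DH-LMP2A replicate 1 at 1.61 CPM and the LCDD libraries at 2.19 to 2.85 CPM. The aligned coding bases of Trim12a and Trim5 were 97.1% identical, and how reads matching both were counted is not given. The Trim5 level may therefore not be separate from that of Trim12a. The 5 most like Pydc3 were Nxpe2 (0.96), Cldn34c1 (0.96), Shisa7 (0.95), 2210409E12Rik (0.95) and Arhgap19 (0.95), which lie on 5 chromosomes other than the one that carries Pydc3. Nxpe2 had 6.40 to 12.004 CPM in WT and at most 0.384 CPM in the other libraries. These correlations include the differences between genotypes and are given as a description, since the genes share their libraries.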

How the data were processed

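Reads of 75 bases from both ends came from stranded mRNA libraries made from 500 ng of RNA, per the labels' protocols. Per the submitters' processing notes, STAR 2.4.0a, featureCounts of Subread 1.5.0-p3, DESeq2 and the build mm10 (GRCm38) were used. The strand setting, the annotation and the treatment of reads with several matches are not given in the sources used here. GRCm38 represents C57BL/6, and the counts do not separate alleles of the 3 strains. The deposited table, per the file headers, holds raw read counts per gene for 13 samples and each gene's exon length, which was used for RPKM; 0 further columns of counts were left over. Of 46958 symbols, 44117 matched GENCODE M21, and 99.84% of those overlapped their annotated span by any length. Coordinates are those of the table.

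Counts were fitted with edgeR 4.0.16 in R 4.3.3 (TMM scaling, filterByExpr with a minimum count of 10, quasi-likelihood fit of 3 genotypes over 13 libraries, no covariate). The filter kept 16738 genes and dropped 30220, and the kept genes hold at least 99.93% of each library's counts. A gene passed at a Benjamini-Hochberg adjusted p under 0.05 over all genes tested; fold changes are on the log2 scale, and their SE follows from the F statistic (its square root divides the log2 value). Levels are CPM after TMM scaling; a prior count of 2 enters the log2 CPM. The fit was tested on simulated data: of genes changed 4-fold, 79.0% were recovered for LCDD against DH-LMP2A, 82.1% for LCDD against WT and 93.0% for the title number, over 16520 genes, with 7, 2 and 12 false calls; no change was simulated between DH-LMP2A and WT, where 0 genes were called. Replicates are numbered in order of deposition, and pools hold different mice per the labels. For LCDD and DH-LMP2A libraries with the same title number, deviations from the genotype means correlated at 0.593, 0.153, 0.488 and 0.450. Their mean was 0.421, against −0.139 for the 12 pairs with different numbers. Those 12 ran from −0.599 to 0.524, so the ranges overlapped and the pairing by number is not settled by the data. With WT, the lowest correlation at the same number was −0.165 for LCDD and −0.159 for DH-LMP2A. Alternatives were DESeq2 1.42.0, other size factors, no filter, the genotypes compared alone, the title number as a block, 2 covariates, WT pools only, and leaving out each library. Motifs and identities were computed from RefSeq windows on GRCm38.p6 and GENCODE M21 exons. The 10 genes and the gene lists were chosen with earlier results of these data known. The text names all 10 genes, their tested neighbours, 2 genes per pathway list and comparison with the smallest p, and the 5 genes most like Trim12a and Pydc3.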

Additional observations from a re-analysis of the deposited data

Results flagged for a closer look

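Of 39 groups of values examined, which were the 10 genes, both gene means and the total counts in each genotype, 7 held a library whose gap to the nearest other library took up more of the group's range than Dixon's 95% critical value. Chance flags about 1 in 20 such groups, or 1.95 here. In DH-LMP2A replicate 1, Trim12a was at 0.40 log2 CPM against 4.62 to 5.07 in the other 3 libraries, and Trim34a at 3.396 against 4.48 to 4.54. In DH-LMP2A replicate 2, Ifi202b was at −0.34 log2 CPM against 1.44 to 1.56. In LCDD replicate 4, Ifi202b was at −3.02 against −3.57 in the other 3, a gap made by 1 read against 0. In WT replicate 2, Ifi204 was at 4.96 log2 CPM against 3.90 to 4.04, and the mean of the 30 interferon-stimulated genes was 6.30 against 4.35 to 4.61. LCDD replicate 3 had 18604929 counts, against 25276687 to 26544422 in the other LCDD libraries.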

How the results depend on the processing

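Over 21 alternatives, 13 of which left out 1 library, the log2 fold changes that chose the set are given as ranges, with nothing read from them: Trim12a from −5.71 to −4.999 for LCDD against DH-LMP2A and from −6.59 to −5.72 against WT, Pydc3 from −4.30 to −3.55 for LCDD and from −3.99 to −3.16 for DH-LMP2A against WT. Of the values of the 10 genes under alternatives, 622 stayed within their spread and 7 moved. Without the 3 single-mouse WT libraries, Pydc4 was −0.78 and −2.20 (LCDD and DH-LMP2A against WT). Ifi202b values depend on the prior count. Without those libraries its LCDD value against WT changed sign from −7.22, but sets 1 read against 0 and is not given as a fold. Its DH-LMP2A value against WT moved from −0.05 to 8.73, and to 2.72 with the title number as a block. The 2 covariate values stand in the report. Where a value below changed, the cause was not tested, except that fewer libraries enter some fits. Listed in the order LCDD against DH-LMP2A, LCDD against WT and DH-LMP2A against WT, 334, 308 and 105 of all genes passed. DESeq2 gave 811, 725 and 461 genes, 3 of the 10 genes in the first comparison, and 4 neighbours in the first and 2 in the last. The block by title number gave 1021, 536 and 562 genes, 3 of the 10 genes and 3 neighbours in the first comparison, and 2 neighbours in the last; among the named genes it changed no call besides those given in the report. With only the genotypes compared, 213 and 185 genes passed in the first 2 comparisons, with 3 of the 10 genes and 2 neighbours in the first. Without the single-mouse WT libraries, 54 and 69 genes passed in the last 2 comparisons, with 0 neighbours in LCDD against WT and 3 of the 10 genes both in LCDD against DH-LMP2A and in DH-LMP2A against WT. The interferon covariate gave 101 and 54 genes in the first and last, and 0 neighbours in the first. The leukocyte covariate gave 2 of the 10 genes in the first, 602 and 278 genes in the last 2 and 1332 for the title number, against 3115. Leaving out 1 library gave 113 to 484, 159 to 441 and 29 to 407 genes, 1502 to 2961 for the title number, 1 to 4, 2 to 4 and 1 to 1 of the 10 genes, 0 to 1 for the title number, and 0 to 4, 0 to 3 and 0 to 0 neighbours. Ifi202b, Trim12a in LCDD and Pydc3 outside WT rest on few reads, which limits their folds.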
